A study of Caenorhabditis elegans with 8 samples.

Results

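Heat-stressed *mut-16* mutants were compared with unheated wild-type animals, which sets both changes, the mutation and the elevated temperature, against neither. The comparison holds 4 of the 8 L4 mRNA-seq libraries, chosen by their labels: 2 biological replicates of wild-type (N2) cultured at 20ºC and 2 of *mut-16(pk710) I* (strain NL1810) cultured at 25ºC. The other 4 libraries are wild-type at 25ºC and *mut-16* at 20ºC, 2 of each, and they supply the change by heat alone and by the mutation alone. All animals were hermaphrodites by the paper's account, grown from synchronised L1s on enriched peptone plates for a single generation. They were collected whole as L4s, after about 56 h at 20ºC and about 39 h at 25ºC, and harvest time therefore differs wherever temperature does. The records give both 8000 and 10000 animals per sample. The mutant is a single strain. The paper's introduction describes *mut-16* mutants, naming *pk710*, as carrying a null mutation, but neither the labels nor the methods say what lesion *pk710* carries. In the joint comparison alone, the part of the mutation and the part of the heat cannot be told apart.

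MUT-16 is the scaffold of the *mutator* complex, which assembles in perinuclear foci of germ cells and makes 22G-RNAs, short antisense RNAs copied from target transcripts and bound by Argonautes of the WAGO clade. These small RNAs silence transposons, pseudogenes and many protein-coding genes. In the male germline and in L4 hermaphrodites, when sperm are made before the switch to oocytes, the Argonautes ALG-3 and ALG-4 bind a further class, the 26G-RNAs, and act on genes of spermatogenesis. Growth at 25ºC is near the upper limit for fertile culture of *C. elegans*, induces small heat shock proteins, and speeds up development, and the L4 stage is also when the cuticle of the adult is prepared.

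Totals per library lay between 9914054 and 13227929 expected counts, and ribosomal RNA took 9.83% to 14.3% of them. Levels are given as CPM, read counts relative to the library total scaled by TMM (trimmed mean of M-values), and a gene was called when the quasi-likelihood test of edgeR, adjusted by Benjamini-Hochberg over all 13972 genes tested, gave a p of at most 0.05 and the log2 fold change exceeded 1 in size. Over the 1000 most variable genes, the first principal component held 41.1% of the variance and parted wild-type at 25ºC from *mut-16* at 20ºC, with the 4 libraries compared here between them, while the second (37.4%) parted wild-type at 20ºC from *mut-16* at 25ºC. Markers of muscle, neuron, intestine, oocyte and male tail held no called gene between the 2 groups, and their summed levels overlapped apart from those of muscle and neuron, which were higher in *mut-16* at 25ºC (4250 and 4591 CPM against 4190 and 3833 CPM for muscle). Of 6 sperm markers, 5 were called lower and none sat at 0, with sums of 208 and 159 CPM in wild-type at 20ºC and 75.6 and 78.7 CPM in *mut-16* at 25ºC. Of 3 hypodermis markers 1 was called higher, with sums of 453 and 459 CPM against 924 and 867 CPM. Most of these sums was the called gene, the collagen *col-12*, at 340 and 336 CPM against 821 and 755 CPM. Of the uncalled markers, *col-19* was higher and *dpy-7* lower in *mut-16* at 25ºC. No early embryo marker was tested, and 2 of 5 sat at 0 in all 4 libraries.

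Between the 2 groups, 579 genes were called higher in *mut-16* at 25ºC, 4.14% of the genes tested, and 1204 were called lower, or 8.62%. The count of lower genes was 664 without *mut-16* at 25ºC replicate 1 and 722 without replicate 2 (443 and 462 for higher genes). The median of all genes was 0.01 on the log2 scale. By sign alone 50.7% of genes were higher and 49.3% lower, and in 30.5% both *mut-16* at 25ºC libraries lay above both libraries of wild-type at 20ºC, while in 28.9% both lay below. Heat alone called 5.3% of genes higher and 4.19% lower, and the mutation alone 1.53% and 3.03%, all against the same wild-type at 20ºC libraries, so the 3 sets of calls share their controls. With 2 libraries against 2, an exact two-sided permutation test of a single value cannot go below p = 0.33.

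The mutated gene checks the labels. *mut-16* (chromosome I, 10080159 to 10085765 in WBcel235) stood at 26.01 and 26.2 CPM in wild-type at 20ºC and at 7.199 and 7.82 CPM in *mut-16* at 25ºC. Both heated mutant libraries lay far below both wild-type libraries (log2 fold change −1.79, SE 0.17, adjusted p = 1.2e-05), near the 5.46 and 7.42 CPM of unheated *mut-16*, and wild-type at 25ºC held 24.3 and 22.6 CPM. The libraries therefore carry the genotype that their labels give, as far as this transcript level can show.

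The calls fell unevenly over gene classes. Major sperm proteins and small sperm families were mostly called lower, many *col* collagens, *hsp-16* genes and readout genes of 22G-RNA silencing were called higher, and ribosomal, proteasome, muscle, neuron, meiotic, oocyte and moulting classes held no called gene.

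**Figure D1:**
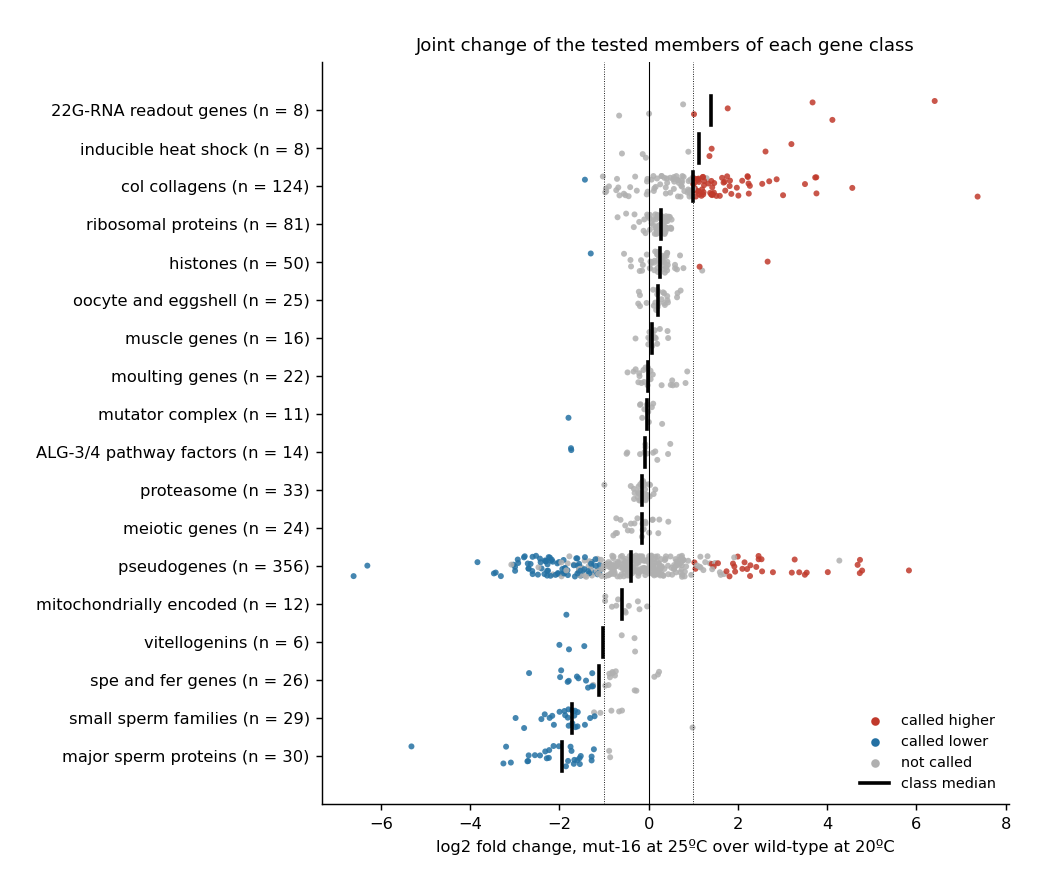
Log2 fold change of each tested member of 18 gene classes, *mut-16* at 25ºC over wild-type at 20ºC, with classes ordered by median (black bars). Points are genes, coloured red if called higher, blue if called lower and grey if not called, and dotted lines mark a log2 fold change of 1 in either direction. Major sperm proteins have a median of −1.93 with 28 of 30 members called lower, and *col* collagens one of 0.98 with 59 of 124 called higher.

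Genes of sperm were lower as a group. The major sperm proteins (MSPs) form the cytoskeleton by which nematode sperm crawl and are also the signal that makes oocytes mature. Of 31 MSP genes 30 were tested, and 28 of these were called lower (93.3%, where 8.62% of all genes were). None was called higher (0 also at an unadjusted p under 0.05 and by DESeq2), and the median log2 fold change was −1.93, with a range from −5.31 to −0.86. The class median was −1.501 without wild-type at 20ºC replicate 1. The other members, *msp-142* and *msp-38*, had log2 fold changes of −0.88 and −0.86 at adjusted p = 0.0076 and 0.014 and missed the fold cutoff alone. In all 30 MSP genes, against 28.9% of all genes tested, both *mut-16* at 25ºC libraries lay below both libraries of wild-type at 20ºC.

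Summed over the class, MSP transcripts held 1956 and 1318 CPM in wild-type at 20ºC and 444 and 461 CPM in *mut-16* at 25ºC. The wild-type at 20ºC libraries differed from each other by more than those of the heated mutant did, yet the groups stood apart, and the heated mutant held 27.6% of the wild-type level. In bulk RNA of whole animals, fewer germ cells in spermatogenesis and less RNA per cell cannot be told apart. The 4 largest drops of well-counted members, here those whose log2 CPM averaged 2 or more, were all on chromosome IV, where 18 of the 30 genes lie. *msp-51* read 85.2 and 49.1 CPM in wild-type at 20ºC and 6.71 and 7.37 CPM in *mut-16* at 25ºC, *msp-57* 101 and 63.1 against 9.74 and 9.61 CPM. Neither gene came near to overlapping between the groups (log2 fold change −3.25, SE 0.24, adjusted p = 1.3e-06 for *msp-51*, and −3.09, SE 0.23, adjusted p = 1.3e-06 for *msp-57*). *msp-55* and *msp-53* fell by 3.19 and 2.71 on the log2 scale. MSP genes are close copies of each other, and their fractional counts show that reads were split among them, so the class total is firmer than a single copy.

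The smaller sperm families *ssp*, *ssq*, *sss*, *msd* and *nspd* encode short sperm-specific proteins. Of 29 tested members, 23 were called lower (79.3%, where 8.62% of all genes were) and none higher (0 also at an unadjusted p under 0.05 and by DESeq2). The median was −1.71, and in 28 members, against 28.9% of all genes tested, both *mut-16* at 25ºC libraries lay below both of wild-type at 20ºC. Their sum was 862 and 896 CPM in wild-type at 20ºC and 266 and 276 CPM in *mut-16* at 25ºC, 30.8% of the wild-type level. *ssq-2* went from 67.6 and 64.7 CPM to 14.6 and 15.7 CPM and *nspd-3* from 32.6 and 30.99 CPM to 7.12 and 6.55 CPM. In both genes the 2 groups were tight and well apart (log2 fold change −2.12, SE 0.18, adjusted p = 4.1e-06 and −2.22, SE 0.19, adjusted p = 5.2e-06). *nspd-10* and *ssp-9* fell by 2.33 and 2.16.

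The *spe* and *fer* genes were found by mutations that make sperm defective and act at many steps of spermatogenesis and sperm activation. They were lowered less evenly: 12 of 26 tested members were called lower, 46.2% where 8.62% of all genes were. None was called higher (0 also at an unadjusted p under 0.05 and by DESeq2), and the median was −1.11. The class summed to 216 and 189 CPM in wild-type at 20ºC and 115 and 119.7 CPM in *mut-16* at 25ºC, or 58.0%. The called members included *spe-43* (−2.68), the fertilisation gene *spe-9* (−1.98), *spe-11*, *spe-49*, *spe-10*, *spe-46*, *spe-26*, *spe-54*, *spe-8*, *spe-4* and *spe-18*, the last at −1.25. Counts of *spe-9* were few and uneven, at 29 and 10 in wild-type at 20ºC and 8 and 2 in *mut-16* at 25ºC (adjusted p = 0.039). *spe-11*, which sperm bring into the egg for eggshell formation and early development, was at 9.87 and 8.35 CPM against 2.37 and 2.31 CPM, and its groups lay well apart (log2 fold change −1.96, SE 0.26, adjusted p = 0.00017). *spe-4*, a presenilin needed for the membranous organelles of sperm, was at 13.9 and 13.8 CPM in wild-type at 20ºC and 5.15 and 6.26 CPM in *mut-16* at 25ºC. Its wild-type libraries were alike and both mutant libraries lower (log2 fold change −1.27, SE 0.19, adjusted p = 0.00049). The ferlin gene *fer-1* (−0.87, adjusted p = 0.052) and *spe-44*, a transcription factor of sperm genes (−0.75, adjusted p = 0.065), were not called.

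*gsp-3* and *gsp-4* encode PP1 phosphatases found in sperm. *gsp-3* read 31.1 and 22.6 CPM in wild-type at 20ºC and 10.9 and 10.3 CPM in *mut-16* at 25ºC, and *gsp-4* read 21.04 and 17.9 CPM against 7.53 and 11 CPM. The groups were apart for both genes (log2 fold change −1.35, SE 0.20, adjusted p = 0.00038 for *gsp-3* and −1.11, SE 0.23, adjusted p = 0.0039 for *gsp-4*). *gsp-4* lost its call without wild-type at 20ºC replicate 1 or without *mut-16* at 25ºC replicate 1.

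*alg-3* and *alg-4*, the Argonautes of the spermatogenesis 26G-RNA pathway, were lowered to a similar degree. *alg-3* (chromosome IV, 11704246 to 11708264) was at 19.8 and 19.6 CPM in wild-type at 20ºC and 5.97 and 5.88 CPM in *mut-16* at 25ºC, and *alg-4* (chromosome III, 9887209 to 9891424) at 29.5 and 24.9 CPM against 7.28 and 9.01 CPM. Within each group the replicates were close, and the groups did not approach each other (log2 fold change −1.73, SE 0.24, adjusted p = 0.00024 for *alg-3* and −1.74, SE 0.24, adjusted p = 0.0002 for *alg-4*). Unheated *mut-16* lay between the groups for both genes, at 11.03 and 11.1 CPM for *alg-3* and 10.9 and 16.9 CPM for *alg-4*, and heated wild-type held 17.3 and 31.1 CPM and 26.2 and 38.3 CPM. None of the other 12 factors of 26G-RNA synthesis and ALG-3/4 action was called. At an unadjusted p under 0.05, *csr-1* was lower and *eri-9* higher. *csr-1*, the Argonaute that protects germline transcripts, was at 189 and 189 CPM against 137 and 134 CPM, where both heated mutant libraries were lower but the drop was under the fold cutoff (log2 fold change −0.48, SE 0.12, adjusted p = 0.015). *eri-9* had a log2 fold change of 0.49 (adjusted p = 0.12), and *rrf-3*, *eri-1*, *dcr-1*, *ego-1*, *drh-3* and *ekl-1* lay between −0.19 and 0.19. The class median was −0.07, and DESeq2 called 2 members too.

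**Figure D2:**
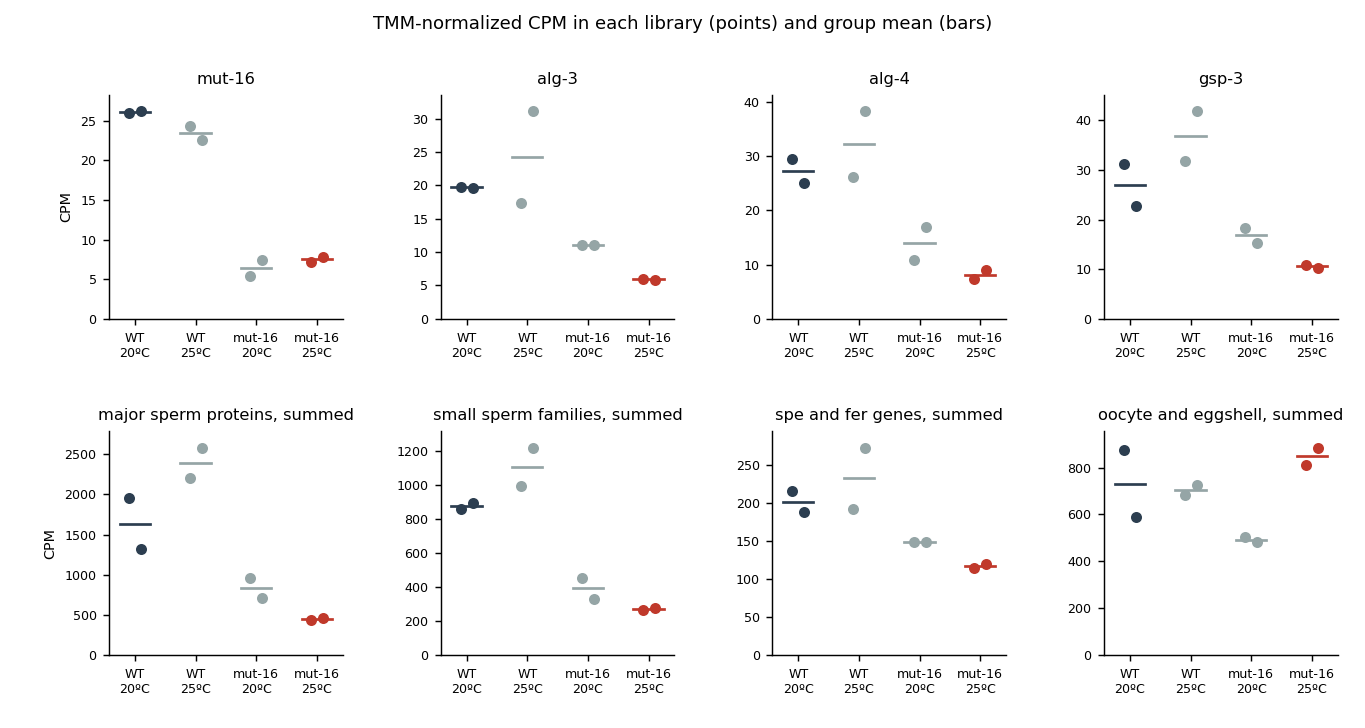
TMM-normalized CPM of 4 genes and 4 class sums, with a point for each library, a bar at the group mean and axes from 0. The groups compared are dark blue (wild-type at 20ºC) and red (*mut-16* at 25ºC), the others grey. *mut-16*, *alg-3*, *alg-4*, *gsp-3* and the 3 sperm class sums are lowest or near lowest in *mut-16* at 25ºC, at 444 and 461 CPM for the major sperm proteins against 1956 and 1318 CPM, while the oocyte and eggshell sum of *mut-16* at 25ºC overlaps that of wild-type at 20ºC.

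The rest of the *mutator* complex and the WAGO Argonautes held 1 called gene each. Of 11 tested *mutator* genes *mut-16* alone was called, and the other 10 lay between −0.19 (*mut-7*) and 0.30 (*nyn-2*), among them the RNA-dependent RNA polymerase gene *rrf-1* at 40.02 and 42.7 CPM against 40.3 and 42.7 CPM, where the groups overlapped. None of these 10 passed an unadjusted p of 0.05. Of 10 tested WAGO genes *wago-10* alone was called lower, 10% where 8.62% of all genes were. It went from 12.9 and 8.97 CPM to 5.81 and 4.62 CPM (log2 fold change −1.08, SE 0.33, adjusted p = 0.035). Its call was lost in 5 of the 8 fits that left out a library, those without wild-type at 20ºC replicate 1, either replicate of unheated *mut-16* or either replicate of *mut-16* at 25ºC. *wago-1*, a major 22G-RNA Argonaute of the germline, read 92.4 and 65.6 CPM against 67.9 and 73.4 CPM, and its groups overlapped.

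Most genes that serve as readouts of 22G-RNA silencing were higher. Of 10 such genes 8 could be tested, and 5 were called higher and none lower, a share of 62.5% where 4.14% of all genes were called higher. The median was 1.40 and the class sum went from 47.9 and 56.7 CPM to 103.9 and 108 CPM, 2.02-fold. The choice of these genes followed what is known of *mutator* mutants, so their direction is no independent finding. *C38D9.2* had 5 and 2 counts in wild-type at 20ºC and 311 and 338 counts in *mut-16* at 25ºC, or 0.383 and 0.178 CPM against 25.4 and 25.2 CPM. Its transcripts were close to absent in unheated wild-type and plentiful in both heated mutant libraries (log2 fold change 6.41, SE 0.31, adjusted p = 3.2e-08). *bath-45* held 0.383 and 0.355 CPM in wild-type at 20ºC and 5.40 and 7.75 CPM in *mut-16* at 25ºC, again with no overlap (log2 fold change 4.12, SE 0.40, adjusted p = 1.1e-05).

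*sosi-1* rose by 3.67 (SE 0.51), *Y37E11B.2* by 1.77 (SE 0.25) and *E01G4.5* by 1.02 (SE 0.26), the last of which was not called without wild-type at 20ºC replicate 1, without *mut-16* at 25ºC replicate 1 or with total-count scaling. *sosi-1* overlaps *eri-6* on the opposite strand, and whether the counting used the strand is not stated. *K02E2.6* was higher in both heated mutant libraries, at 27.98 and 28.9 CPM against 15.2 and 18.1 CPM, but under the fold cutoff (log2 fold change 0.77, SE 0.15, adjusted p = 0.0027). *ssp-16*, which is also a sperm gene, went the other way at 13.8 and 15.04 CPM against 23.1 and 22.6 CPM (log2 fold change −0.66, SE 0.16, adjusted p = 0.0095), and the pseudogene *W05H12.2* overlapped between the groups (0.01). *E01G4.5* and *Y37E11B.2* were left among the called genes when 10 counts were required in every library, since the other called members have fewer than 10 counts in some library.

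Large increases were also found outside the classes. *F15D4.5* (chromosome II, 13245376 to 13247774) had 5 and 8 counts in wild-type at 20ºC and 937 and 995 counts in *mut-16* at 25ºC, which is 0.383 and 0.710 CPM against 76.7 and 74.1 CPM. All other libraries lay between these extremes, at 13.4 and 9.81 CPM in heated wild-type and 36.5 and 36.7 CPM in unheated *mut-16* (joint log2 fold change 7.11, SE 0.26, adjusted p = 2.2e-09). *timm-17B.2* (chromosome IV, 8396648 to 8397954), which encodes a relative of a translocase subunit of the inner mitochondrial membrane, went from 3.06 and 2.40 CPM to 154 and 146 CPM. Unheated *mut-16* already held 196 and 136 CPM (log2 fold change 5.76, SE 0.24, adjusted p = 5.7e-09 for the joint comparison). The ribonuclease H gene *rnh-1.3* (chromosome I, 9710088 to 9710745) stood at 0.995 and 0.977 CPM in wild-type at 20ºC and 53.5 and 53.0 CPM in *mut-16* at 25ºC. It was intermediate in the other libraries, at 7.64 and 6.63 CPM with heat alone and 17.5 and 16.9 CPM with the mutation alone (log2 fold change 5.74, SE 0.21, adjusted p = 2.2e-09).

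*F07B7.2* on chromosome V, at 1.07 and 0.444 CPM against 40.7 and 39.9 CPM (log2 fold change 5.67, SE 0.26, adjusted p = 1.9e-08), had the level of unheated *mut-16*, 42.5 and 37.3 CPM. *Y68A4A.13* on the same chromosome, at 0.612 and 1.15 CPM against 31.8 and 29.3 CPM (log2 fold change 5.12, SE 0.26, adjusted p = 4.3e-08), was nearer to heated wild-type with 20.7 and 18.7 CPM. The infection response gene *irg-5* had 79.1 and 97.9 CPM in wild-type at 20ºC and 1283 and 1144 CPM in *mut-16* at 25ºC. Its heated mutant libraries were above those of every other group (log2 fold change 3.78, SE 0.15, adjusted p = 5.7e-09). Its change by heat alone was 2.50 and by the mutation alone 1.26, whose sum of 3.76 is close to the joint value (interaction 0.01, adjusted p = 0.98). The pseudogene *ZK402.3*, the non-coding *ZK384.7*, *C08E3.1*, *srlf-34*, *lido-12* and *col-7* rose by between 3.39 and 4.01.

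**Figure D3:**
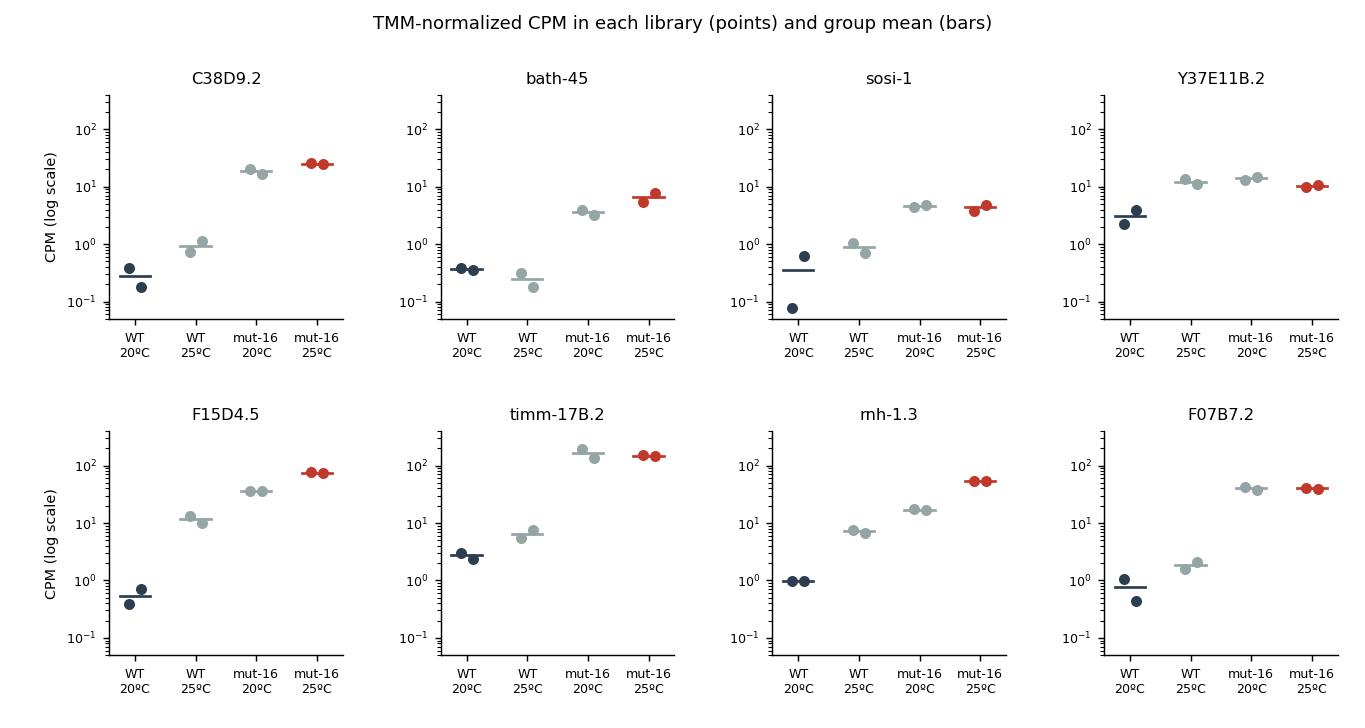
TMM-normalized CPM on a shared log axis for 4 readout genes of 22G-RNA silencing (top) and the 4 genes with the largest increase among well-counted genes (bottom), with a point for each library and a bar at the group mean. All 8 genes are far lower in wild-type at 20ºC (dark blue) than in *mut-16* at 25ºC (red), from below 1 CPM to 76.7 and 74.1 CPM for *F15D4.5*. Heated wild-type and unheated *mut-16* are grey, and for *timm-17B.2* the libraries of unheated *mut-16* lie on either side of those of *mut-16* at 25ºC.

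Among the genes called higher, 88 had at most 3 counts in each wild-type at 20ºC library, and 10 of them had none. Against a floor of 3 counts per library, *F11D11.3*, with 42 and 46 counts in *mut-16* at 25ºC, was at least 13.9-fold higher, and *ZK402.2*, with 16.98 and 11.91 expected counts, was at 0 in all 6 other libraries and at least 4.63-fold higher. Of the genes called lower, 58 had at most 3 counts in each *mut-16* at 25ºC library and 5 had none, with *nspc-16* at least 6.22-fold lower. These genes were picked for their low values.

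The 12 largest decreases of well-counted genes were of mixed kinds. *gmd-2* (chromosome I, 12292202 to 12293936), which encodes a GDP-mannose dehydratase, had 20.1 and 21.3 CPM in wild-type at 20ºC and 0.982 and 1.19 CPM in *mut-16* at 25ºC. Every library outside wild-type at 20ºC was at 1.19 CPM or below, with 0.424 and 0.530 CPM in heated wild-type and 0.298 and 0.946 CPM in unheated *mut-16* (log2 fold change −4.23, SE 0.30, adjusted p = 8.6e-07). It overlaps the end of *F56H6.4* on the other strand. *K06H6.2* and *K06H6.1*, neighbours on chromosome V (585772 to 587336 and 588118 to 589657), were low in the same libraries, at 27.9 and 24.1 CPM against 1.96 and 2.31 CPM and 16.8 and 14.4 CPM against 0.736 and 1.56 CPM. Both were likewise low, at 1.59 CPM or below, or at up to 2.31 CPM in the heated mutant, in all 6 libraries other than wild-type at 20ºC (log2 fold change −3.60, SE 0.27, adjusted p = 1.3e-06 and −3.73, SE 0.30, adjusted p = 2.3e-06). *nspc-9*, *nspc-15* and *nspc-14*, of a family of short nematode-specific peptides clustered on the X chromosome, fell by 3.41, 3.23 and 2.87, and *nspc-9* read 14.2 and 11.6 CPM against 1.06 and 1.34 CPM. The pseudogenes *F36H12.6* and *ZK546.3* fell by 3.31 and 2.79, and 3 MSP genes completed the set with *Y71G12B.18* (−2.77, SE 0.20).

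The oocyte and general germline classes held few called genes. None of 25 oocyte and eggshell genes was called by edgeR or DESeq2, and 6 were higher and 0 lower at an unadjusted p under 0.05. Their median was 0.21, and their sum of 812 and 885 CPM in *mut-16* at 25ºC overlapped the 873 and 589 CPM of wild-type at 20ºC, whose replicates differed widely. *cpg-2*, an eggshell proteoglycan gene, read 127 and 82.9 CPM against 97.03 and 107 CPM, with overlapping groups (log2 fold change −0.05, SE 0.19, adjusted p = 0.91). None of 24 genes of the meiotic axis, synapsis and recombination was called by either tool (median −0.14, with 0 higher and 4 lower at an unadjusted p under 0.05), with *him-17* at 37.6 and 27.5 CPM and 33.95 and 35.8 CPM. The log2 fold changes ranged from −0.23 to 0.72 over the oocyte genes and from −0.79 to 0.44 over the meiotic genes.

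Of 21 genes of germline proliferation and P granules, 2 were called higher (9.52%, where 4.14% of all genes were) and none lower. They were *meg-1* and *meg-3*, which build the P granules of the early embryo. *meg-1* had 8 and 5 counts in wild-type at 20ºC and 48 and 62 counts in *mut-16* at 25ºC (log2 fold change 2.98, SE 0.40, adjusted p = 0.00017). All other libraries had at most 6 counts. *cgh-1*, an RNA helicase gene, read 218 and 165 CPM against 170.3 and 185 CPM, and the class sums overlapped. Of 17 tested genes of sex determination 1 was called higher (5.88%, where 4.14% of all genes were) and none lower. This was *fog-1*, which directs germ cells to sperm. It was at 1.84 and 1.60 CPM in wild-type at 20ºC against 4.17 and 4.84 CPM in *mut-16* at 25ºC (log2 fold change 1.38, SE 0.30, adjusted p = 0.0056). The call was lost without *mut-16* at 25ºC replicate 2. *fog-3* (−0.44, adjusted p = 0.59), *fem-3*, *tra-1* and *tra-2* were not called. These members are named because they were called or stand beside a called gene, after their values were seen.

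Heat-inducible genes were split. Of 8 tested members 4 were called higher (50%, where 4.14% of all genes were) and none lower. All 4 were of the *hsp-16* family of small heat shock proteins, which hold unfolded proteins in solution. The remaining tested *hsp-16* gene, *hsp-16.11*, was also higher by sign but was not called. *hsp-16.41* went from 1.53 and 2.13 CPM to 17.7 and 15.9 CPM, and *hsp-16.2* from 2.45 and 3.20 CPM to 16.7 and 17.9 CPM. Both genes were above their wild-type level in every heated or mutant library, and highest in *mut-16* at 25ºC (log2 fold change 3.20, SE 0.26, adjusted p = 2.3e-06 for *hsp-16.41* and 2.62, SE 0.21, adjusted p = 2.2e-06 for *hsp-16.2*). *hsp-16.48* and *hsp-16.1* rose by 1.36 and 1.41, and *hsp-16.48* stood at 18.3 and 27.3 CPM against 58.7 and 58.2 CPM, where heated wild-type, at 63.1 and 48.2 CPM, overlapped the heated mutant.

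None of the HSP70 members was called. *F44E5.4* read 17.4 and 23.7 CPM in wild-type at 20ºC and 13 and 14.4 CPM in *mut-16* at 25ºC, while heated wild-type held 41.5 and 35.4 CPM and unheated *mut-16* 32.7 and 45.5 CPM. Its heated mutant libraries were the lowest of all 8, but the difference from wild-type at 20ºC was not called (log2 fold change −0.60, SE 0.20, adjusted p = 0.056). *F44E5.5* (−0.13) and *hsp-70* (−0.06) overlapped between the groups. Of 15 tested constitutive and organelle chaperones 1 was called higher and 2 lower (6.67% and 13.3%, where 4.14% and 8.62% of all genes were). *sip-1*, a small heat shock protein, was called higher from 76.6 and 41.6 CPM to 119.4 and 133 CPM (log2 fold change 1.09, SE 0.23, adjusted p = 0.0044). *hsp-12.6* and *hsp-12.3* were called lower (−1.91 and −1.60), and without wild-type at 20ºC replicate 2 none of these 3 genes was called. *hsp-1*, *hsp-90* and *hsp-60* stood at 0.19, 0.21 and 0.09.

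Cuticle collagens were the class with most genes called higher. Of 124 tested *col* genes 59 were called higher (47.6%, where 4.14% of all genes were) and 1 lower (0.81%, where 8.62% were). The median was 0.98, and in 97 *col* genes, against 30.5% of all genes tested, both *mut-16* at 25ºC libraries lay above both of wild-type at 20ºC. Their sum went from 23193 and 21478 CPM to 38902 and 36917 CPM, 1.70-fold higher, and heated wild-type stood higher still at 58389 and 53152 CPM. Of 5 genes of the adult cuticle *col-62* and *col-7* were called, and *col-62* went from 2.98 and 0.977 CPM to 13.5 and 16.3 CPM and *col-7* from 0.765 and 1.69 CPM to 10.6 and 16.8 CPM. Replicates of both genes were uneven in wild-type at 20ºC, though the groups did not overlap (log2 fold change 2.87, SE 0.39, adjusted p = 0.00019 and 3.50, SE 0.60, adjusted p = 0.0011). *col-91* rose by 2.24 (SE 0.18). Of the hypodermis markers outside this class, *dpy-7* read 86.99 and 103 CPM against 69.9 and 72.5 CPM, lower in *mut-16* at 25ºC and not called, and the part of hypodermis amount in the collagen result was not tested. *col-41* was at 6.81 and 6.22 CPM in wild-type at 20ºC and 38.04 and 38.2 CPM in *mut-16* at 25ºC, and it was highest in *mut-16* at either temperature (log2 fold change 2.54, SE 0.16, adjusted p = 2.6e-07, with 43.2 and 44.7 CPM in unheated *mut-16* and 17.5 and 16.08 CPM in heated wild-type).

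*col-19*, the usual marker of the adult cuticle, read 25.9 and 20.8 CPM in wild-type at 20ºC and 34.03 and 39.6 CPM in *mut-16* at 25ºC, higher in both heated mutant libraries but under the fold cutoff (log2 fold change 0.66, SE 0.22, adjusted p = 0.048). Heated wild-type had 114 and 67.4 CPM and unheated *mut-16* 5.56 and 5.602 CPM, so the heated mutant lay between them. The strut collagens *bli-1* and *bli-2* were at −0.29 and −0.26 and were not called. Of 20 collagens that shape the body and furrows *dpy-17* alone was called higher (1.35), 5% where 4.14% of all genes were. That call was lost when any of the 4 libraries compared was left out. None of 22 genes of moulting and the apical matrix was called by either tool (median −0.02, with 6 higher and 1 lower at an unadjusted p under 0.05), and *noah-1*, a zona pellucida protein of the cuticle, overlapped at 316 and 275 CPM and 238 and 307 CPM. Because harvest time changed with temperature, the age of the animals within L4 and the heat cannot be told apart here.

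Of 41 tested hedgehog-related genes, secreted proteins made largely by the epidermis, 6 were called higher and 2 lower, or 14.6% and 4.88%, where 4.14% and 8.62% of all genes were. *grl-4* rose by 2.07, *grl-27* by 1.896, *grd-13* by 1.43 and *grd-14* by 1.11. *grd-14* was at 61.4 and 53.99 CPM against 122 and 128 CPM, with no overlap. Epidermal antimicrobial peptides of the neuropeptide-like class included *nlp-34*, which stood at 7.42 and 7.37 CPM in wild-type at 20ºC and 38.8 and 34.9 CPM in *mut-16* at 25ºC (log2 fold change 2.31, SE 0.18, adjusted p = 1.8e-06), and *nlp-29* and *nlp-27* rose by 1.51 and 1.48. Over the 96 tested neuropeptide and insulin-like genes 5 were called higher and 5 lower, 5.21% each where 4.14% and 8.62% of all genes were, with *nlp-24* among the lower (−1.08). *nlp-29* was not called without wild-type at 20ºC replicate 1, nor *nlp-24* without its replicate 2. The lower count was 3 without either replicate of wild-type at 20ºC and 2 without *mut-16* at 25ºC replicate 1.

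Some yolk and fat genes of the intestine were lower. Of 6 vitellogenin genes, which encode yolk proteins, 3 were called lower (50%, where 8.62% of all genes were) and none higher. *vit-4* was at 12.24 and 13.9 CPM in wild-type at 20ºC and 2.78 and 3.72 CPM in *mut-16* at 25ºC, and *vit-3* at 40.6 and 55.4 CPM against 11.4 and 16.3 CPM. Both heated mutant libraries lay below both of wild-type at 20ºC (log2 fold change −1.999, SE 0.33, adjusted p = 0.00087 for *vit-4*, and −1.78 for *vit-3*), and *vit-6* fell by 1.44. The vitellogenin sum was 583 and 712 CPM against 268 and 359 CPM, 48.4% of wild-type, while the 4 intestine markers, *vit-2* among them, summed to 1975 and 1592 CPM against 1883 and 1980 CPM. The stearoyl-CoA desaturase gene *fat-7* stood at 225 and 272 CPM in wild-type at 20ºC, 113 and 114 CPM in heated wild-type, 122 and 124 CPM in unheated *mut-16* and 61.5 and 61.97 CPM in *mut-16* at 25ºC. It was lowest with both changes, by an amount close to the sum of the single changes (joint log2 fold change −2.01, SE 0.13, adjusted p = 6.7e-07, with −1.12 by heat and −1.01 by the mutation). *elo-8* and *elo-7* were the other called members of the 16 desaturase and elongase genes, both lower, and *fat-6* and *fat-2* were at 0.07 and 0.70. The called share of this class was 18.75%, where 8.62% of all genes were called lower.

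Of 10 intestine genes 2 were called lower (20%, where 8.62% of all genes were) and none higher. The digestive protease gene *cpr-1* was at 494 and 476 CPM against 199 and 194 CPM (log2 fold change −1.302, SE 0.13, adjusted p = 2.3e-05). The metallothionein gene *mtl-2* was the other (−1.26, not called without wild-type at 20ºC replicate 2). The transcription factors *elt-2* (−0.35) and *elt-7* (0.34) were not called, and the class held 76.0% of its wild-type sum. Lysozyme and saposin-like genes of gut defence had 8 of 31 members called lower (25.8%, against 8.62% of all genes) and 2 higher (6.45%, against 4.14%). The lower included *spp-4* (−1.92), *spp-23* (−1.89), *lys-5* (−1.503) and *spp-2* (−1.39). The lower count was 4 without wild-type at 20ºC replicate 2 and 5 without *mut-16* at 25ºC replicate 2. C-type lectins had 16 of 105 called lower (15.2%, against 8.62% of all genes) and 9 higher (8.57%, against 4.14%), and 9 were lower without *mut-16* at 25ºC replicate 1. *clec-160* read 37.4 and 42.5 CPM in wild-type at 20ºC and 8.84 and 9.01 CPM in *mut-16* at 25ºC, with no overlap, and unheated *mut-16* held 36.1 and 39.1 CPM (log2 fold change −2.16, SE 0.16, adjusted p = 1.2e-06).

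Cytochrome P450 and UDP-glucuronosyltransferase genes, which detoxify small molecules, had 12 tested members called higher and 9 lower, or 11.5% and 8.65%, where 4.14% and 8.62% of all genes were. *ugt-62* went from 218 and 236 CPM to 65.6 and 66.0 CPM (log2 fold change −1.79, SE 0.13, adjusted p = 1.3e-06), the level of heated wild-type (66.3 and 59.4 CPM). *cyp-37B1* rose by 3.22 (SE 0.28), from 1.68 and 0.977 CPM to 14.3 and 11.02 CPM, under the 53.6 and 62.4 CPM of heated wild-type. Nuclear hormone receptors had 5 of 173 called in each direction, 2.89% and so under the 4.14% and 8.62% of all genes, *nhr-114* among the lower (−1.18). Without wild-type at 20ºC replicate 2 or *mut-16* at 25ºC replicate 2 the lower count was 3.

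The large and variable gene families with F-box or with MATH and BTB domains, many of which pick proteins for degradation, had 15 of 110 F-box genes (13.6%) and 8 of 53 MATH and BTB genes (15.1%) called higher, where 4.14% of all genes were. Called lower were 10 F-box genes (9.09%) and 1 MATH and BTB gene (1.89%), where 8.62% of all genes were. *fbxa-24* went from 4.82 and 7.10 CPM to 54.2 and 52.5 CPM and was nearly as high with either change alone, at 37.3 and 36.4 CPM and 47.8 and 50.9 CPM (log2 fold change 3.17, SE 0.18, adjusted p = 1.5e-07). *fbxa-11*, *fbxa-182*, *fbxa-166* and *btb-17* rose by between 1.02 and 1.79, with *btb-17* not called without wild-type at 20ºC replicate 1. Requiring 10 counts in every library left 7 F-box and 4 MATH and BTB genes called higher.

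None of 81 cytosolic ribosomal protein genes and none of 33 proteasome genes was called, while DESeq2 called 0 and 1. At an unadjusted p under 0.05, 29 ribosomal genes were higher and 1 lower, and 0 proteasome genes were higher and 5 lower. The ribosomal median was 0.27, with 63 genes higher in both *mut-16* at 25ºC libraries without overlap, where 30.5% of all genes were. *rpl-3* read 4479 and 4852 CPM against 5103 and 4958 CPM. The proteasome median was −0.14, with 19 genes lower without overlap, against 28.9% of all genes. Of 50 tested histone genes 2 were called higher, *his-29* and *his-55* (1.14), and *his-70* lower (−1.296). These were 4% and 2%, where 4.14% and 8.62% of all genes were. The higher count was 1 without wild-type at 20ºC replicate 2 or without *mut-16* at 25ºC replicate 1, and *his-55* was not called without *mut-16* at 25ºC replicate 2. Most histone genes are close copies, so single members are uncertain. Their sum was 1239.9 and 1338 CPM in wild-type at 20ºC and 1589.6 and 1422 CPM in *mut-16* at 25ºC. Both were well under the 2381 and 2280.3 CPM of heated wild-type. The libraries were made from mRNA purified from total RNA with Dynabeads, and how evenly that step kept histone transcripts was not tested. All 12 mitochondrially encoded genes had a negative log2 fold change (median −0.61), where 49.3% of all genes did. MTCE.16 was the 1 gene called lower (8.33%, where 8.62% of all genes were). It went from 45.2 and 96.3 CPM to 16.6 and 22.7 CPM (log2 fold change −1.84, SE 0.31, adjusted p = 0.00099). The count was 5 without *mut-16* at 25ºC replicate 2, 3 without wild-type at 20ºC replicate 1, 2 without wild-type at 20ºC replicate 2 and 3 with total-count scaling. Muscle, neuron and male classes, of 16, 15 and 7 tested genes, held none called by edgeR or DESeq2, and 1, 1 and 0 were higher and 0, 1 and 0 lower at an unadjusted p under 0.05.

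Annotated pseudogenes, many of them known targets of 22G-RNAs, held called genes in both directions. Of 356 tested, 33 were called higher (9.27%, against 4.14% of all genes) and 80 lower (22.5%, against 8.62%). The median was −0.39, or −0.40 with the 24 members at 3 counts or fewer in each library of a group set at that floor. *ZK402.3* went from 0.995 and 0.888 CPM to 15.9 and 14.9 CPM (log2 fold change 4.01, SE 0.26, adjusted p = 5e-07), and *Y54G2A.21* rose by 2.79. *F36H12.6*, at chromosome IV, 5265592 to 5265921, went from 37.95 and 23.9 CPM to 2.94 and 3.28 CPM (log2 fold change −3.31, SE 0.25, adjusted p = 1.6e-06). It lies in the same stretch of chromosome IV as *msp-51* (5294957 to 5295340). The lower count depended on single libraries, with 39 without *mut-16* at 25ºC replicate 1 and 36 without replicate 2. Pseudogenes share sequence with functional copies, so their reads can come from either.

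Whether the joint change equals the sum of the 2 single changes was asked of each gene by the interaction of genotype and temperature, in the same fit and at an adjusted p of at most 0.05. In 222 genes (1.59%) the joint change was higher than the sum and in 209 (1.5%) lower. These counts rest on few libraries. Leaving out a library gave 54 (without *mut-16* at 25ºC replicate 1) to 666 (without wild-type at 20ºC replicate 1) genes for the first and 62 (without *mut-16* at 25ºC replicate 2) to 427 (without wild-type at 20ºC replicate 1) for the second, and scaling by total counts gave 517 and 139. Without wild-type at 20ºC replicate 2 they were 268 and 209, without heated wild-type replicate 1 they were 74 and 162, without its replicate 2 132 of 236 genes in all were higher, without unheated *mut-16* replicate 1 they were 101 and 145, and without its replicate 2 they were 73 and 109. Without *mut-16* at 25ºC replicate 1 they were 54 and 70, and without its replicate 2 they were 64 and 62.

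MSP genes went further with both changes than the single changes add up to. Their median was 0.51 by heat alone, with 2 called higher, and −0.996 by the mutation alone, with 15 called lower, against −1.93 for both. In 21 of 30 genes the joint change was lower than the sum at the threshold, and in none higher. The count lay between 10 (without *mut-16* at 25ºC replicate 1) and 26 (without wild-type at 20ºC replicate 1) when a library was left out, and was 20 with total-count scaling. It was also 12 without *mut-16* at 25ºC replicate 2, 12 without unheated *mut-16* replicate 1 and 13 without heated wild-type replicate 2. Small sperm families had medians of 0.22, −1.10 and −1.71 and 7 of 29 genes lower than the sum, but none without heated wild-type replicate 2 or without unheated *mut-16* replicate 1, and 1 without either replicate of *mut-16* at 25ºC. *spe* and *fer* genes had medians of 0.16, −0.53 and −1.11, and 0 passed the interaction test, with 7 lower at an unadjusted p under 0.05 and 1 lower by DESeq2. *gsp-3* did (interaction −1.11, SE 0.28, adjusted p = 0.047), while *alg-3* (−1.21, adjusted p = 0.067) and *alg-4* (−1.03, adjusted p = 0.11) did not. The *gsp-3* call was lost with total-count scaling and in 6 of the 8 fits that left out a library, all but those without wild-type at 20ºC replicate 1 or heated wild-type replicate 1.

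Oocyte and eggshell genes had a median of −0.09 by heat, −0.83 by the mutation with 5 called lower, and 0.21 for both. In 7 of 25 the joint change was higher than the sum, a count of 0 without either replicate of *mut-16* at 25ºC or without unheated *mut-16* replicate 2, of 1 without heated wild-type replicate 1, of 3 without its replicate 2, of 4 without unheated *mut-16* replicate 1 and of 18 without wild-type at 20ºC replicate 2, and 13 with total-count scaling. *col* collagens were at 1.25 by heat with 75 called higher, −0.61 by the mutation with 29 called lower, and 0.98 for both, and 11 genes were above the sum and 7 below it, or 24 and 6 with total-count scaling. Without a library these counts lay between 4 and 16 and between 2 and 13, lowest without *mut-16* at 25ºC replicate 1 and highest without wild-type at 20ºC replicate 1. Readout genes of 22G-RNA silencing had medians of 0.94 by heat, with 3 called higher, and 1.77 by the mutation, with 5 called higher, against 1.40 for both. For *Y37E11B.2* (−2.44, adjusted p = 0.0015), *K02E2.6* (−1.38, adjusted p = 0.0036) and *ssp-16* (−1.02, adjusted p = 0.026) the joint change was lower than the sum, for *ssp-16* not without either replicate of *mut-16* at 25ºC, heated wild-type replicate 2 or unheated *mut-16* replicate 1. Histone genes were at 0.95 by heat with 22 called higher and at 0.25 for both, with 10 of 50 lower than the sum, and that count was 2 without *mut-16* at 25ºC replicate 2, 4 without unheated *mut-16* replicate 2, 5 without *mut-16* at 25ºC replicate 1 or either replicate of heated wild-type, and 6 with total-count scaling.

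**Figure D4:**
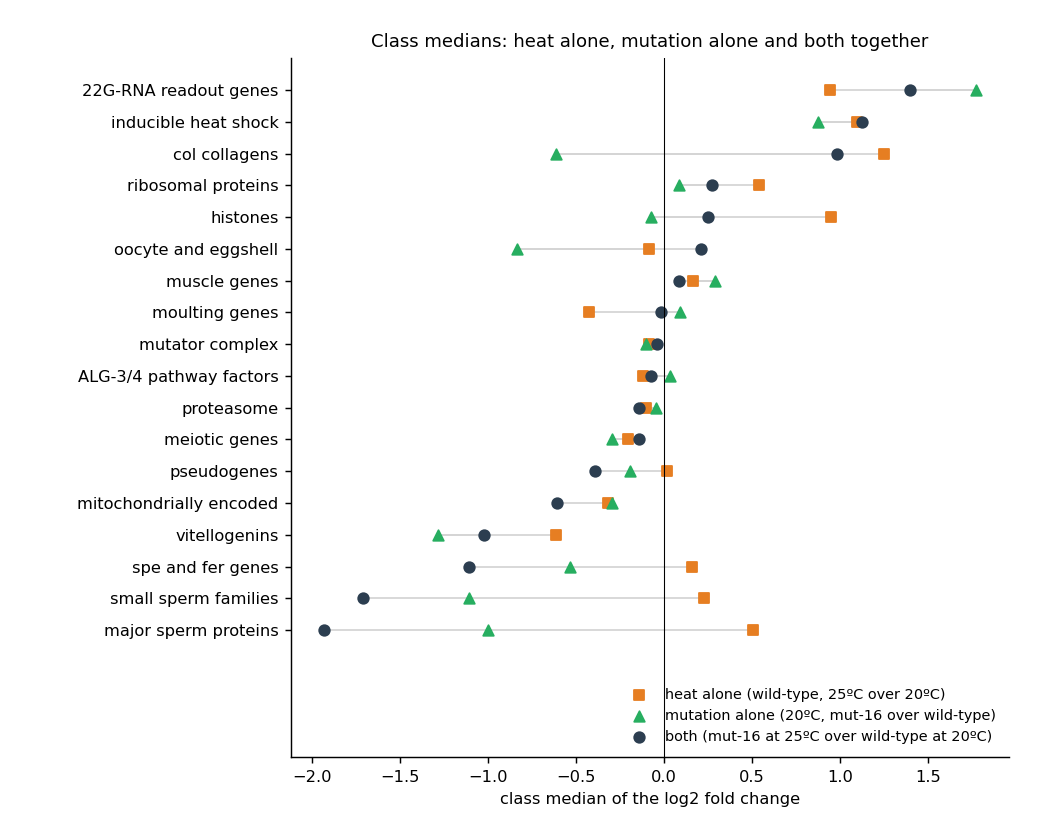
Median log2 fold change of 18 gene classes over wild-type at 20ºC, for heat alone (orange squares), the mutation alone (green triangles) and both together (dark circles). The 3 values of a class share their control libraries. For the 3 sperm classes the joint median is the lowest of the 3 values, at −1.93, −1.71 and −1.11, while the median by heat alone is above 0, and for collagens and histones the joint median of 0.98 and 0.25 lies between those of the single changes.

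*lido-8* was about as high with both changes as with either alone. It read 20.7 and 17.7 CPM in wild-type at 20ºC, 83.5 and 79.8 CPM with heat, 75.1 and 85.3 CPM with the mutation and 84.9 and 80.1 CPM with both. The other 6 libraries thus stood at a common level, and the joint change of 2.10 was well under the sum of 4.15 (interaction −2.05, SE 0.20, adjusted p = 0.00027). *F15D4.5* and *fbxa-24* were also below their sums, by 3.36 and 2.52, as was the pseudogene *F56D6.16* with 5.36 and 7.64 CPM in wild-type at 20ºC, 38.5 and 29.7 CPM and 41.6 and 36.9 CPM with the single changes and 20.2 and 23.1 CPM with both. In *pud-1.1* the joint level of 69.7 and 65.2 CPM fell between 14 and 13.1 CPM in wild-type at 20ºC and 209.5 and 197 CPM in heated wild-type (interaction −2.35, adjusted p = 0.00071). Among the largest decreases, *gmd-2*, *K06H6.1* and *K06H6.2* were above their sums by 6.10, 5.39 and 5.46. Their levels were already near 0 CPM with each single change. A drop as large as the sum could not have been counted, so the direction of these gaps was set by the floor and is not read as a result.

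Other genes were far from wild-type at 20ºC with 1 or each of the single changes and nearer to it with both together. *col-149* was at 119.3 and 110.5 CPM in wild-type at 20ºC, 29.9 and 32.2 CPM in heated wild-type, 132 and 145 CPM in unheated *mut-16* and 107 and 116 CPM in *mut-16* at 25ºC. Heated wild-type alone stood apart, and the joint comparison overlapped (−0.04, adjusted p = 0.87, interaction 1.57, adjusted p = 0.00074). The hedgehog-related gene *grd-10* was also lowest there, with 1.91 and 2.12 CPM in heated wild-type and 10.6 and 15.2 CPM against 16.8 and 16.3 CPM in the groups compared. *C30G12.2* differed in the other way, with 88.9 and 77.7 CPM in unheated *mut-16* and 234 and 245 CPM against 186 and 181 CPM in the groups compared (joint −0.38, adjusted p = 0.062). For *F44E5.4* the sum of the single changes was 1.84 and the joint change −0.60 (interaction −2.44, SE 0.28, adjusted p = 0.00074), and *F44E5.5* and *hsp-70* differed from their sums in the same direction (−1.79 and −1.43, adjusted p = 0.022 and 0.045). The *F44E5.5* and *hsp-70* calls were lost without either replicate of *mut-16* at 25ºC, without unheated *mut-16* replicate 2 or without heated wild-type replicate 1, and *hsp-70* also without heated wild-type replicate 2 and with total-count scaling.

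**Figure D5:**
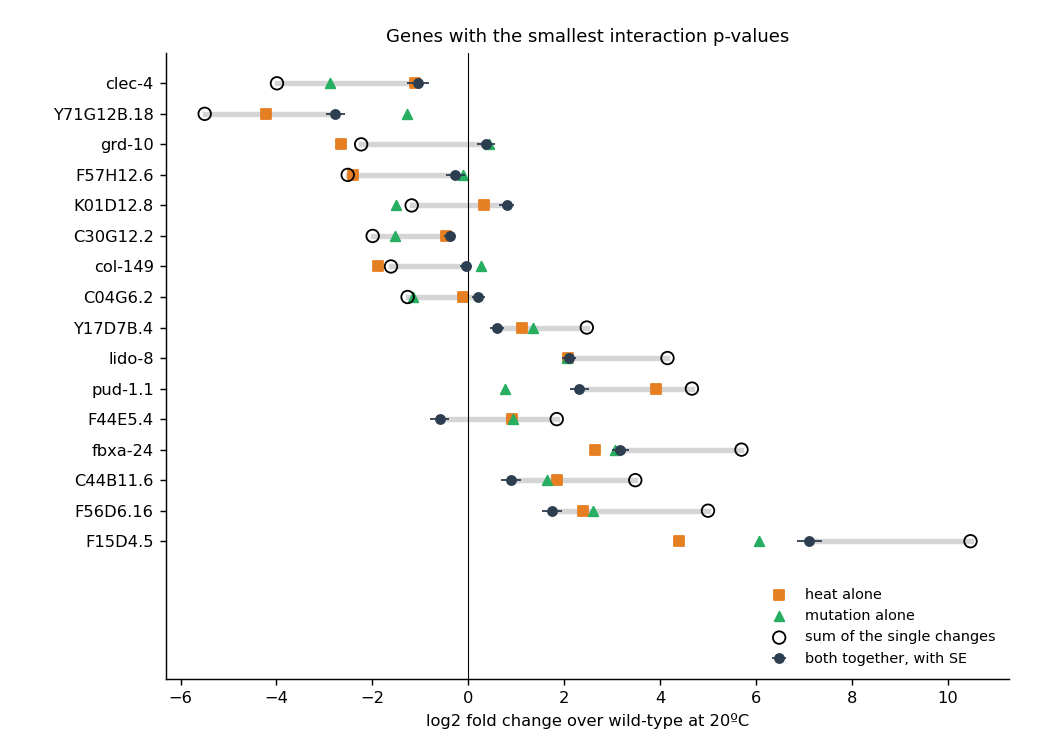
Log2 fold change over wild-type at 20ºC of the 16 well-counted genes with the smallest interaction p, 8 in each direction, for heat alone, the mutation alone, their sum (open circles) and both together (dark circles with standard errors). Grey bars span the gap between the sum and the joint value, from −3.36 for *F15D4.5* to 2.93 for *clec-4*.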

How the data were processed

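mRNA was measured in 8 libraries of whole L4 animals, 2 biological replicates in each of 4 groups taken from the labels. The authors trimmed reads with Cutadapt, quantified them with Salmon against WS258 mRNA, non-coding and pseudogenic transcripts, and deposited expected counts summed per gene. Whether the counting used the strand is not stated. Of 46453 gene names, 46260 matched the Ensembl WBcel235 annotation, 189 did not and 4 were repeated. Counts were rounded and fitted with edgeR 4.0.16 (R 4.3.3), with all 4 groups in 1 quasi-likelihood model, TMM scaling and filterByExpr (minimum count 10, minimum total 15). A gene was called when the Benjamini-Hochberg adjusted p did not exceed 0.05 and the log2 fold change exceeded 1 in size. Normalized CPM relate these counts to the TMM-scaled library total, so gene length does not enter them and levels are compared between groups, not between genes. Alternatives were DESeq2 1.42.0, other scaling and filters, a replicate block, 4 libraries alone and leaving out each library.

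Members and class lists were chosen with earlier results of these data known. Genes named were *mut-16*, *alg-3*, *alg-4*, members of short lists, up to 4 called members per class with the largest change whose groups did not overlap and whose mean log2 CPM was 2 or more, the 12 largest changes in each direction under the same conditions and the 8 smallest interaction p-values in each direction. Other genes are named after their values were seen, as the few called or the uncalled members of a class. Figures were drawn with matplotlib 3.10.9.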

Additional observations from a re-analysis of the deposited data

Results flagged for a closer look

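By the test of the interaction of genotype and temperature (edgeR, Benjamini-Hochberg), the log2 effect of heat in *mut-16* minus that in wild-type differed from 0 in 16 well-counted genes chosen for the smallest p in each direction. It was above 0 in *col-149* (1.57), *Y71G12B.18* (2.73), *C30G12.2* (1.61), *K01D12.8* (1.98), *grd-10* (2.60), *C04G6.2* (1.48), *clec-4* (2.93) and *F57H12.6* (2.25). It was below 0 in *F56D6.16* (−3.25), *fbxa-24* (−2.52), *lido-8* (−2.05), *C44B11.6* (−2.59), *F15D4.5* (−3.36), *Y17D7B.4* (−1.87), *pud-1.1* (−2.35) and *F44E5.4* (−2.44). These values equal the joint change minus the sum of the changes by heat alone and by the mutation alone.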

How the results depend on the processing

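The numbers of genes called higher and lower were 310 for higher with at least 10 counts in every library, 211 and 249 when the test itself required the fold change (glmTreat), 1104 for higher at the adjusted p alone, and 746 for lower with DESeq2 on the 4 libraries. Leaving out a library gave 443 to 692 higher and 664 to 1237 lower genes. The counts were 455 and 944 with DESeq2 on all libraries, 511 and 1304 with total-count scaling and 724 and 1335 without a filter. For the interaction, total-count scaling gave 517 higher and 139 lower, no filter gave 668 and 543, and leaving out a library gave 54 to 666 and 62 to 427. DESeq2 on 4 libraries called 6 *spe* and *fer* genes lower, and a minimum of 10 counts in every library left 2 readout genes of 22G-RNA silencing called higher. Replicate numbers did not pair the samples, with correlations of deviations from −0.165 to 0.073 between same-numbered libraries, and a replicate block gave 571 higher and 1147 lower genes, or 559 and 1195 on the 4 libraries. Crossed numbers, a pairing added after seeing the data, gave 603 and 1317. With the block the interaction counts were 159 and 157. Of 97 named genes called, 83 were called under every alternative run, and of 79 not called, 74 under none. No named gene reversed. With 2 libraries a group, changes near the fold cutoff often lost their call when a library was left out.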

Other observations

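Families picked after their values were seen held further called genes, where 8.62% of all genes were called lower and 4.14% higher. All 15 tested *nspc* genes, short nematode-specific peptides on the X chromosome, were called lower, with a median log2 fold change of −3.22 (−2.87 with *nspc-16*, at 0 in both heated mutant libraries, set at its bound), against −1.004 by heat alone and −1.34 by the mutation alone. The counts of *nspc-16* were fractional, at 16.28 and 19.35 in wild-type at 20ºC, so its reads were split with other transcripts. Members of this family may therefore not be independent of each other. Of the receptor-like *irld* genes 6 of 9 were called lower (66.7%, median −1.32), of the tau tubulin kinase-like *ttbk* genes 6 of 8 (75%, −1.25) and of the neprilysin *nep* genes 6 of 18 (33.3%, −0.85). Of 11 *lido* genes 5 were called higher (45.5%, median 0.98).

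By chromosome, genes called lower made up 13.7% of those tested on IV (332 of 2430) and 2.56% on X (47 of 1833), with 9.04% on I, 9.21% on II, 7.27% on III and 8.48% on V. Genes called higher made up 6.59% on V (181 of 2747), 4.93% on II, 4.03% on IV, 3.87% on X, 2.66% on I and 2.24% on III. Genes of a cluster are not independent of each other, and no test was made of these shares.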
